A study of Mus musculus with 12 samples.

Results

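The genes described here are those of the Wnt signalling pathway in mouse N2A neuroblastoma cells, from the secreted ligands through their receptors and inhibitors to the transcription factors at the end of the cascade. They were chosen by gene symbol: Wnt, Fzd, Dkk, Sfrp or Rspo followed by a number, together with Lrp5, Lrp6, Axin1, Axin2, Nkd1, Nkd2, Lef1, Tcf7, Tcf7l1, Tcf7l2, Ctnnb1, Apc, Lgr4, Lgr5, Znrf3 and Rnf43. On the array 57 of 35556 probe sets carried 1 of these symbols as their single name. They stood for 56 of 19938 genes, because Wnt4 had 2 probe sets and Tcf7 had none with a single name. RNA was measured on 12 Affymetrix whole-transcript arrays, 3 in each of 4 groups. Control proliferating cells were stably transfected with a non-targeting (scrambled) vector and grown with 10% serum. KD proliferating cells were grown in the same way and carried a stable short hairpin RNA construct, made in a pBSU6 vector, against the long non-coding RNA Dali. Control RA and KD RA cells were the same kinds of cell after 72 h in medium with 2% serum and 20 uM all-trans retinoic acid (RA). All 4 groups had been co-transfected with a hygromycin resistance plasmid and selected as single clones at 200 ug/ml. The study's methods describe 3 independent Dali knockdown clones and 1 control line, and the labels do not say which clone each KD array came from. A difference between KD and control cells is therefore a difference from 1 control line, and an effect of RA and an effect of the lower serum cannot be told apart.

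Wnt proteins are secreted lipid-modified ligands that bind Frizzled receptors and the co-receptors Lrp5 and Lrp6. In the canonical branch this binding stops a complex of Axin and Apc from marking beta-catenin, the product of Ctnnb1, for destruction, so that beta-catenin can enter the nucleus and act with TCF/LEF factors. Secreted Dkk and Sfrp proteins block ligand or co-receptor, while R-spondins act through Lgr receptors to keep the ligases Znrf3 and Rnf43 from removing Frizzled receptors. The pathway is known for its part in patterning the nervous system and in the choice between proliferation and neuronal differentiation.

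The median log2 signal of an array was 7.146 to 7.209, and arrays of 1 group correlated at 0.9924 to 0.9961 over all probe sets. No probe set was assigned to Dali, so the knockdown itself was not checked on these arrays. As a guide to background signal the 95th percentile (log2 6.552) of 1190 olfactory and vomeronasal receptor genes was taken. Neuroblastoma cells are not known to use these genes. Of 12 neuroblastoma and sympathoadrenal markers 11 were on the array, and each of the 11 had a mean above that percentile in at least 1 group. Their mean per array was 9.49 to 9.55 in control proliferating, 9.70 to 9.73 in KD proliferating, 9.35 to 9.39 in control RA and 9.32 to 9.42 in KD RA cells. In proliferating cells 5 of the 11 (Hand2, Isl1, Mycn, Th and Dbh) were called higher in KD cells and none lower. There 6.96% of all tested genes were called in either direction, and changes of the 11 ran from -0.21 to 0.62. After RA 1 was called higher and 1 lower in KD cells (7.71% of tested genes). With RA 3 were called lower in control (9.34%) and 4 in KD cells (9.94%). The difference of the 2 RA changes was called for 1 (1.24%). The part of such shifts in the Wnt results was not tested. Means per array were 6.52 to 6.71 for 6 glial markers, 6.49 to 6.75 for 6 fibroblast markers and 6.09 to 6.33 for 7 immune and endothelial markers, of which 3, 2 and 5 lay under that percentile in every group. None of these 3 lists had a call between KD and control cells, and with RA the endothelial gene Pecam1 fell by 0.63 in control and by 0.53 in KD cells. In bulk samples fewer cells of a type and less RNA per cell cannot be told apart.

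A gene was called when its Benjamini-Hochberg adjusted p from limma was under 0.05 and its change was at least 1.3-fold, which is 0.379 on the log2 scale. The fit covered 9969 genes, the more variable 50% of all genes. Of the 56 Wnt genes 24 passed that filter on variability and 32 did not, so counts are also given over all genes without the filter. Errors of log2 changes are standard errors (SE) with 3 arrays a group. These errors and the p-values reflect the spread between arrays. With 1 control line they do not measure how far separately selected control lines would differ.

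Between KD and control proliferating cells 3 Wnt genes were called: the receptors Fzd6 and Fzd7 were lower and the secreted inhibitor Sfrp4 was higher in KD cells. This comparison called 6.96% of all tested genes. Without the filter the same count was 3 of 56, or 5.36%, beside 3.47% of all genes. After RA 2 were called, Fzd6 and the inhibitor Dkk3, both lower in KD cells, where 7.71% of tested genes were called. Without the filter they made up 3.57% of the Wnt genes beside 3.87% of all genes.

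With RA 4 Wnt genes rose in control cells, Fzd5, Lef1, Wnt5a and Dkk3, and none fell, where 9.34% of tested genes were called in either direction. In KD cells Fzd5, Lef1, Dkk1 and Fzd7 rose with RA and Sfrp4 fell, where 9.94% of tested genes were called. Without the filter the shares were 7.14% of the Wnt genes beside 4.65% of all genes in control cells, and 8.93% beside 4.97% in KD cells. The median change over all 56 genes was 0.01 in control and -0.003 in KD cells, beside 0.003 and -0.01 over all genes, so most of the pathway's genes stayed close to the centre of the array. Between KD and control cells the medians were -0.05 in proliferating and -0.08 in RA-treated cells, beside -0.01 and -0.03 over all genes. The 4 comparisons share arrays, and their values are set side by side below without a correlation.

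**Figure D1:**
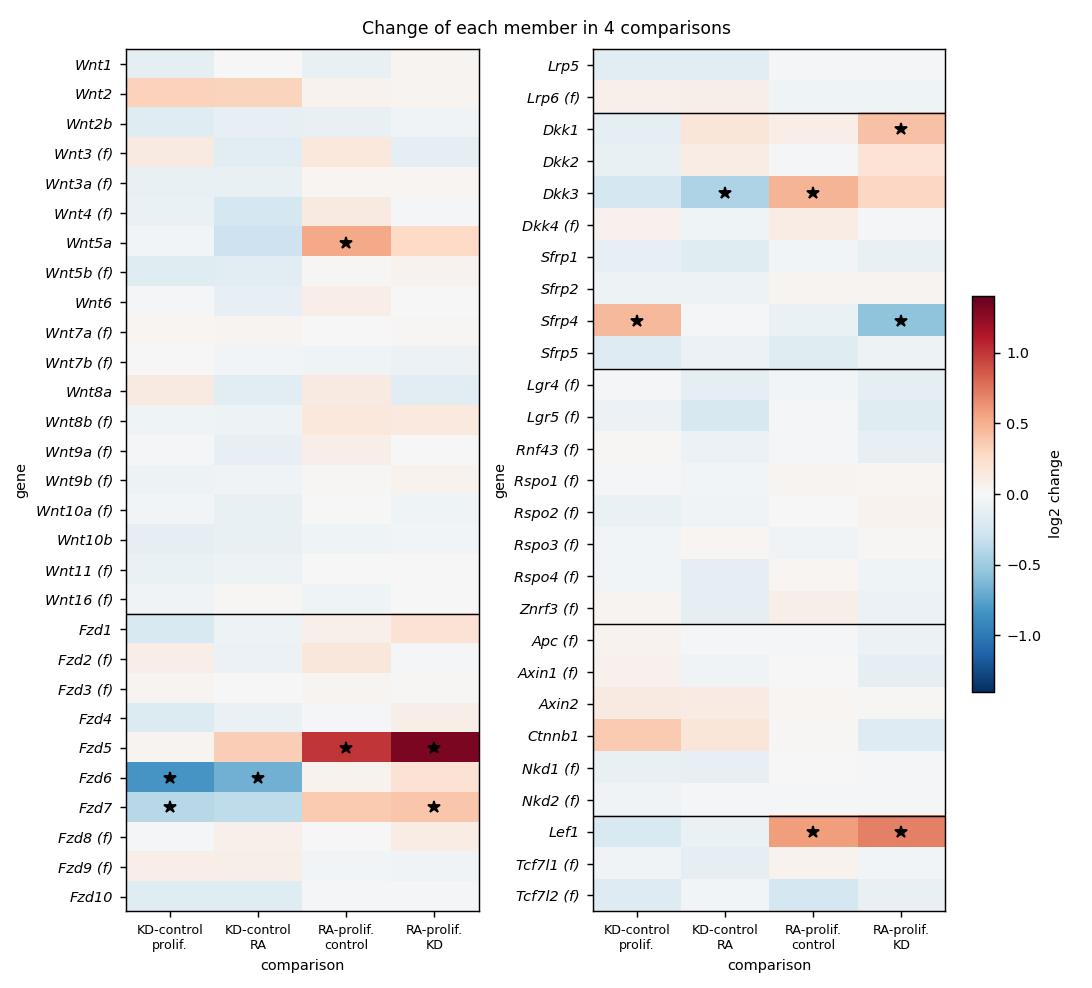
Log2 change of each of the 56 Wnt genes (rows, grouped by role with black lines) in 4 comparisons (columns), from blue for lower to red for higher, with stars for called changes and (f) for the 32 genes that did not pass the filter on variability. Fzd5, at 1.00 and 1.32 on RA, and Fzd6, at -0.82 and -0.67 in KD cells, stand out among rows that are mostly pale.

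Of the 10 Frizzled receptors, which bind Wnt ligands at the cell surface, Fzd5, Fzd6 and Fzd7 were called in at least 1 comparison. The share of all genes called in at least 1 comparison was not counted, for this role or for those below. Fzd5 was the gene that moved furthest with RA. In control proliferating cells its log2 expression was 7.769, 7.849 and 7.7, and in control RA cells it was 8.812, 8.79 and 8.72. In KD proliferating cells it was 7.855, 7.777 and 7.792, and in KD RA cells 9.097, 9.133 and 9.142. Every RA-treated array lay above every proliferating array, and after RA every KD array lay above every control array, while the proliferating groups overlapped. With RA Fzd5 rose by 1.00 ± 0.05 (log2, SE; 2.00-fold, adjusted p = 8.88e-08) in control cells and by 1.32 ± 0.05 (2.49-fold, adjusted p = 7.32e-08) in KD cells. Between KD and control cells the change was 0.04, with a 95% interval of -0.07 to 0.14, when proliferating. After RA it was 0.35 ± 0.05 (adjusted p = 0.000251), a 1.27-fold difference that fell short of the 1.3-fold cutoff.

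Fzd6, a receptor known from planar cell polarity, was lower in KD cells in both states. Control proliferating cells had log2 expression of 9.205, 9.165 and 9.234, and KD proliferating cells 8.262, 8.588 and 8.289. Control RA cells had 9.273, 9.274 and 9.212, and KD RA cells 8.611, 8.595 and 8.541. All 6 KD arrays lay below all 6 control arrays, and the second KD proliferating array lay above the other 2 of its group. Fzd6 fell by 0.82 ± 0.07 in proliferating cells (1.77-fold lower, adjusted p = 1.55e-05) and by 0.67 ± 0.07 after RA (1.59-fold lower, adjusted p = 5.62e-05). Its RA change was 0.05 in control and 0.20 in KD cells, and neither was called.

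Fzd7, a receptor close in sequence to Fzd1 and Fzd2, was lower in KD cells and higher with RA by amounts that sat at the cutoff. Proliferating control cells measured 7.713, 7.903 and 7.751 (log2 expression) and proliferating KD cells 7.358, 7.469 and 7.388. RA-treated control cells measured 8.168, 8.069 and 8.22 and RA-treated KD cells 7.845, 7.846 and 7.696. In each state the KD arrays lay below the control arrays, and the KD RA and control proliferating arrays overlapped. The KD change was -0.38 ± 0.07 when proliferating (adjusted p = 0.000963), which was called, and -0.36 after RA (adjusted p = 0.00141), which was not. The RA change was 0.36 in control cells (adjusted p = 0.00116), not called, and 0.39 in KD cells (adjusted p = 0.00064), called. All 4 adjusted p-values were under 0.05, so the 1.3-fold cutoff alone separated them, and leaving out 1 array moved several across it. Without the second control proliferating array, for example, the KD change was -0.33 and the RA change in control cells was 0.42. No other Frizzled gene was called. Changes of all 10 ran from -0.82 to 0.35 between KD and control cells and from -0.05 to 1.32 with RA, and Fzd2 and Fzd8 stayed under the receptor-gene percentile in every group.

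**Figure D2:**
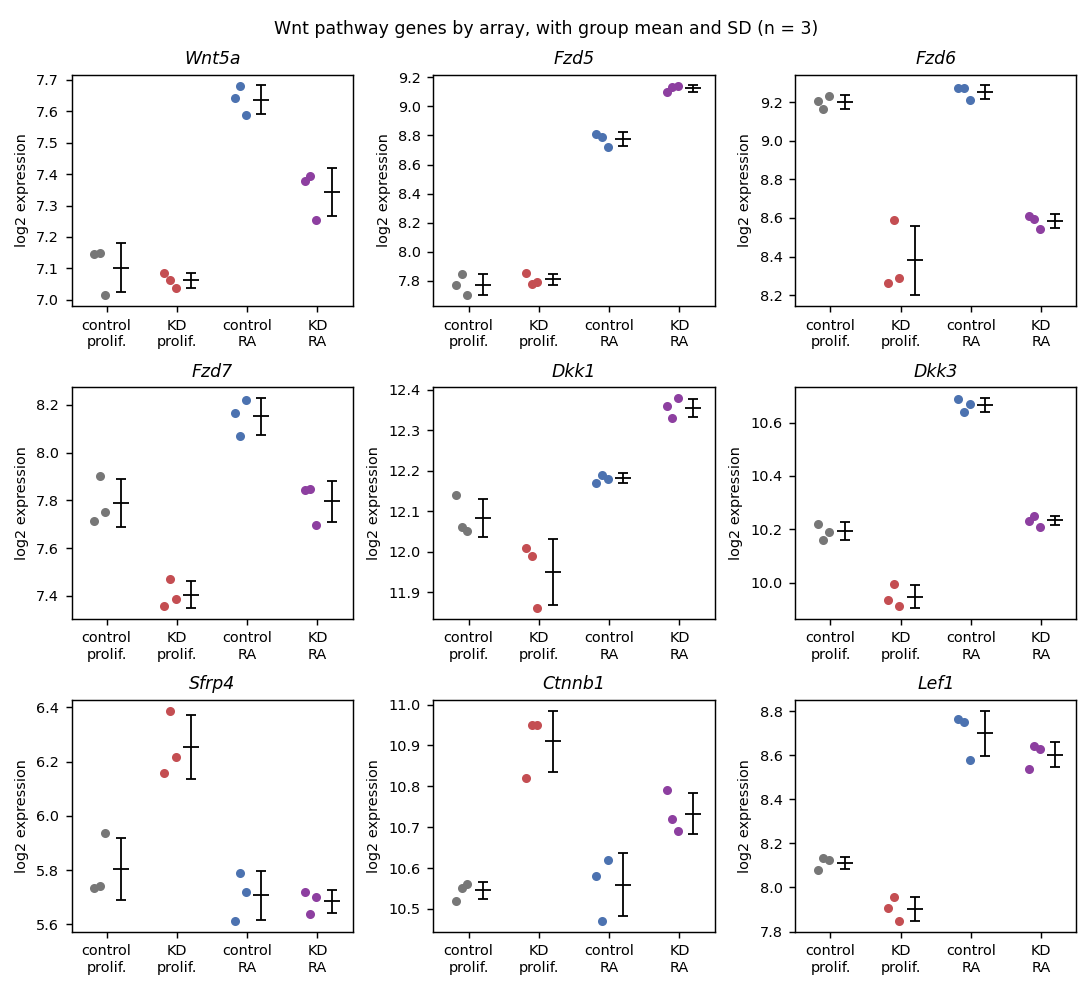
Log2 expression of the 8 called Wnt genes and Ctnnb1 on each array (points, replicates 1 to 3 from left to right in each group), with the group mean and SD in black (n = 3); each panel has its own axis, which does not start at 0. Fzd5 separates by RA, Fzd6 by KD, and Fzd7 and Dkk3 by both.

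Among 19 Wnt ligands only Wnt5a, which acts mainly outside the canonical branch, was called. Its log2 expression was 7.145, 7.149 and 7.014 in control proliferating and 7.643, 7.68 and 7.588 in control RA cells. In KD cells it was 7.086, 7.063 and 7.037 when proliferating and 7.379, 7.393 and 7.255 after RA. Control RA arrays were the highest, KD RA arrays lay between them and the proliferating arrays, and the proliferating groups overlapped. Wnt5a rose by 0.53 ± 0.05 with RA in control cells (1.45-fold, adjusted p = 1.35e-05). In KD cells its RA change was 0.28 (adjusted p = 0.00158), below the fold cutoff, and after RA the KD change was -0.30 (adjusted p = 0.00133).

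Wnt2, a canonical ligand, had group means of 6.98 and 7.30 in control and KD proliferating cells and of 7.03 and 7.34 in control and KD RA cells. The KD arrays lay above the control arrays in both states. The changes of 0.33 and 0.31 had adjusted p-values of 0.00183 and 0.00228 and were 1.25-fold and 1.24-fold, under the cutoff. Wnt1, Wnt2b and Wnt8b stayed under the receptor-gene percentile in every group. Over the 19 ligands changes ran from -0.30 to 0.33 between KD and control cells and from -0.14 to 0.53 with RA.

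The co-receptors, which form the active receptor complex with a Frizzled protein, had no call. Lrp5 was 8.57, 8.643 and 8.572 in control proliferating and 8.427, 8.477 and 8.399 in KD proliferating cells. After RA it was 8.56, 8.634 and 8.55 in control and 8.433, 8.422 and 8.41 in KD cells. KD arrays lay below control arrays in both states by the same amount, -0.16 ± 0.04 (adjusted p = 0.0136 and 0.0128), a 1.12-fold difference. Lrp6 changes lay between -0.06 and 0.08 in the 4 comparisons.

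Of the 8 secreted inhibitors, Dkk3, Dkk1 and Sfrp4 were called. Dkk3, a member of the Dickkopf family that differs from the others in that it is not a clear antagonist of Lrp co-receptors, differed with both RA and KD. Its log2 expression was 10.22, 10.16 and 10.19 in control proliferating and 9.934, 9.996 and 9.912 in KD proliferating cells. With RA the values were 10.69, 10.64 and 10.67 in control and 10.23, 10.25 and 10.21 in KD cells. Control RA arrays were the highest and KD proliferating arrays the lowest, while KD RA and control proliferating arrays overlapped. With RA Dkk3 rose by 0.47 ± 0.04 in control cells (1.39-fold, adjusted p = 4.44e-06). In KD cells its RA change was 0.29 (adjusted p = 0.000235), 1.22-fold. In RA-treated cells Dkk3 fell by 0.43 ± 0.04 with KD (1.35-fold lower, adjusted p = 2.27e-05), and in proliferating cells the KD change was -0.24 (adjusted p = 0.000908), under the cutoff.

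Dkk1, a secreted antagonist of Lrp5 and Lrp6 and itself a known target of beta-catenin, was 12.14, 12.06 and 12.05 in control proliferating and 12.01, 11.99 and 11.86 in KD proliferating cells. RA-treated arrays gave 12.17, 12.19 and 12.18 in control and 12.36, 12.33 and 12.38 in KD cells. KD arrays were the lowest when proliferating and the highest after RA. Its RA change was 0.40 ± 0.05 in KD cells (1.32-fold, adjusted p = 5.37e-05), which was called, and 0.10 in control cells (adjusted p = 0.15). The first value was 0.36, under the cutoff, without the third KD proliferating array. The KD change was -0.13 when proliferating (adjusted p = 0.0507) and 0.17 after RA (adjusted p = 0.0147).

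Sfrp4, a secreted Frizzled-related protein that binds Wnt ligands, had low signal: all 4 of its group means lay under the receptor-gene percentile. Its log2 expression was 5.736, 5.74 and 5.937 in control proliferating and 6.156, 6.387 and 6.218 in KD proliferating cells. After RA it was 5.612, 5.789 and 5.721 in control and 5.718, 5.638 and 5.7 in KD cells. KD proliferating arrays stood above the other 9. Sfrp4 was higher by 0.45 ± 0.07 with KD in proliferating cells (1.37-fold, adjusted p = 0.000758), and with RA it fell by 0.57 ± 0.07 in KD cells (1.48-fold lower, adjusted p = 0.000104). After RA the KD change was -0.02, with a 95% interval of -0.18 to 0.14. Sfrp1 and Sfrp2 also stayed under the receptor-gene percentile in every group, and neither was called.

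In the R-spondin branch none of the 8 genes passed the filter on variability, and none was called without it. The widest range belonged to Lgr5, a receptor for R-spondins, with group means of 10.03 and 9.96 in control and KD proliferating cells and 10.01 and 9.79 in control and KD RA cells. Its KD change after RA was -0.23 (adjusted p = 0.00669 without the filter), 1.17-fold lower. Rspo2 and Rspo3 lay under the receptor-gene percentile in every group.

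Of the 6 cytoplasmic genes none was called, though Ctnnb1 came close. Log2 expression was 10.52, 10.55 and 10.56 in control proliferating and 10.82, 10.95 and 10.95 in KD proliferating cells. With RA it was 10.58, 10.47 and 10.62 in control and 10.79, 10.72 and 10.69 in KD cells. KD arrays lay above control arrays in both states. The KD change was 0.36 ± 0.05 when proliferating (1.29-fold, adjusted p = 0.000373) and 0.17 after RA (1.13-fold, adjusted p = 0.0242). The first passed the cutoff, at 0.41, when the first KD proliferating array was left out. RNA of Ctnnb1 says nothing of the amount of beta-catenin protein, which is set largely by its degradation. Axin2, a scaffold protein and a widely used target of the pathway, had group means of 6.85, 6.97, 6.87 and 6.99 in control proliferating, KD proliferating, control RA and KD RA cells, and no change of it was called.

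Lef1, which carries beta-catenin to its target genes, was the only TCF/LEF factor called. Its log2 expression was 8.081, 8.132 and 8.125 in control proliferating and 8.767, 8.752 and 8.581 in control RA cells. In KD cells it was 7.907, 7.956 and 7.847 when proliferating and 8.537, 8.643 and 8.631 after RA. All RA-treated arrays lay above all proliferating arrays. Lef1 rose with RA by 0.59 ± 0.06 in control cells (1.50-fold, adjusted p = 1.05e-05) and by 0.70 ± 0.06 in KD cells (1.62-fold, adjusted p = 2.69e-06). When proliferating, KD arrays lay below control arrays, with a change of -0.21 (adjusted p = 0.0142) that was 1.16-fold, and after RA the groups overlapped. Tcf7l2, which can repress or activate the same targets, had the lowest RA change of the 56 genes in control cells, at -0.24 (adjusted p = 0.00334 without the filter). It had not passed the filter, and its RA change in KD cells was -0.11.

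Whether the RA change differed between KD and control cells was tested by subtracting the RA change of control from that of KD cells. By the rule with the fold cutoff 1 Wnt gene was called, Sfrp4 at -0.47 ± 0.11 (adjusted p = 0.0442), where 1.24% of tested genes were called. Without the filter its adjusted p was 0.0586 and none of the 56 was called, beside 0.466% of all genes. In that limma fit 9 of the 56 had an unadjusted p under 0.05, beside 14.8% of all genes. By adjusted p alone, a rule added after the data had been seen, 2.07% of tested genes passed and so did 3 Wnt genes. These were Sfrp4, Fzd5 at 0.31 ± 0.07 (1.24-fold, adjusted p = 0.0432) and Dkk1 at 0.31 ± 0.07 (1.24-fold, adjusted p = 0.0442). Fzd5 and Dkk1 thus had the larger RA change in KD cells, by less than 1.3-fold, and without the filter their adjusted p-values were 0.0583 and 0.0591. From these same arrays the study named Dkk1 and Fzd5 among genes whose RA response depended on Dali, at a false discovery rate of 0.05. Its list is therefore not separate evidence. The study's methods also describe a 1.3-fold cutoff in every case, which neither gene reached here. Over 20 alternative settings the adjusted p ran from 0.00854 to 0.109 for Fzd5 and from 0.00294 to 0.101 for Dkk1, and was under 0.05 in 5 of the 20 for each. For Sfrp4 it ran from 0.0267 to 0.102 over 19 settings and was under 0.05 in 6. For Wnt5a the difference was -0.25 (adjusted p = 0.116), for Dkk3 -0.19 (adjusted p = 0.127), and for Lef1 0.11 (adjusted p = 0.513).

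**Figure D3:**
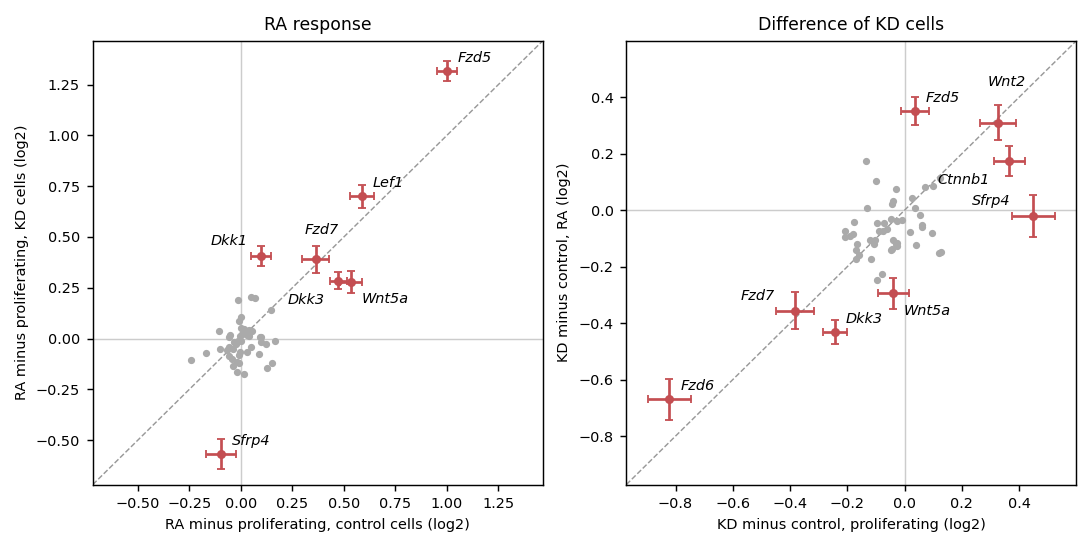
Left, RA change in KD cells (y axis) against that in control cells (x axis), and right, KD change after RA (y axis) against that in proliferating cells (x axis), both log2, for the 56 Wnt genes, with SE bars on the named ones and a dashed line where both axes are equal; the axes of each panel share arrays. Fzd5 lies above the line on the left at 1.00 and 1.32 and Sfrp4 below it at -0.10 and -0.57, and Fzd6 is alone at the lower left on the right, at -0.82 and -0.67.

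Because KD cells are clones, the KD changes of the genes lying next to the called members were read as well. For each member these were the nearest 50 protein-coding genes of above-median signal in genome order, 25 on each side. Around Fzd6 the neighbours' median KD change was -0.21 in proliferating and -0.25 in RA-treated cells, and 44 and 47 of the 50 were below 0. Relative to those medians Fzd6 changed by -0.61 and -0.42, still past the cutoff in size. The other Wnt genes on chromosome 15, where Fzd6 lies, also had neighbours with medians below 0. These were -0.18 and -0.24 around Rspo2, -0.21 and -0.23 around Wnt7b, and -0.14 and -0.18 around both Wnt1 and Wnt10b. Wnt1 and Wnt10b lie close together, so theirs are not separate readings. Neighbours shared between the other genes, Fzd6 among them, were not counted. Copy number on this chromosome was not measured, and its part in the Fzd6 result was not tested. Around Fzd7 the medians were 0.02 and 0.01, and around Dkk3 they were 0.19 and 0.09, opposite in sign to Dkk3 itself. Relative to its neighbours Dkk3 changed by -0.43 in proliferating and -0.52 in RA-treated cells. Around Sfrp4 the medians were 0.10 and 0.01, and relative to them Sfrp4 was 0.35 higher in proliferating cells, under the cutoff. Around Ctnnb1, with 47 neighbours, they were 0.14 and 0.08, and relative to them Ctnnb1 was 0.22 and 0.09 higher. Around Lrp5, with 29 neighbours, the medians were -0.10 and -0.12, and relative to them its KD changes shrank to -0.06 and -0.04. Around Wnt2 the medians were 0.14 and 0.07, of the same sign as the KD changes of Wnt2.

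**Figure D4:**
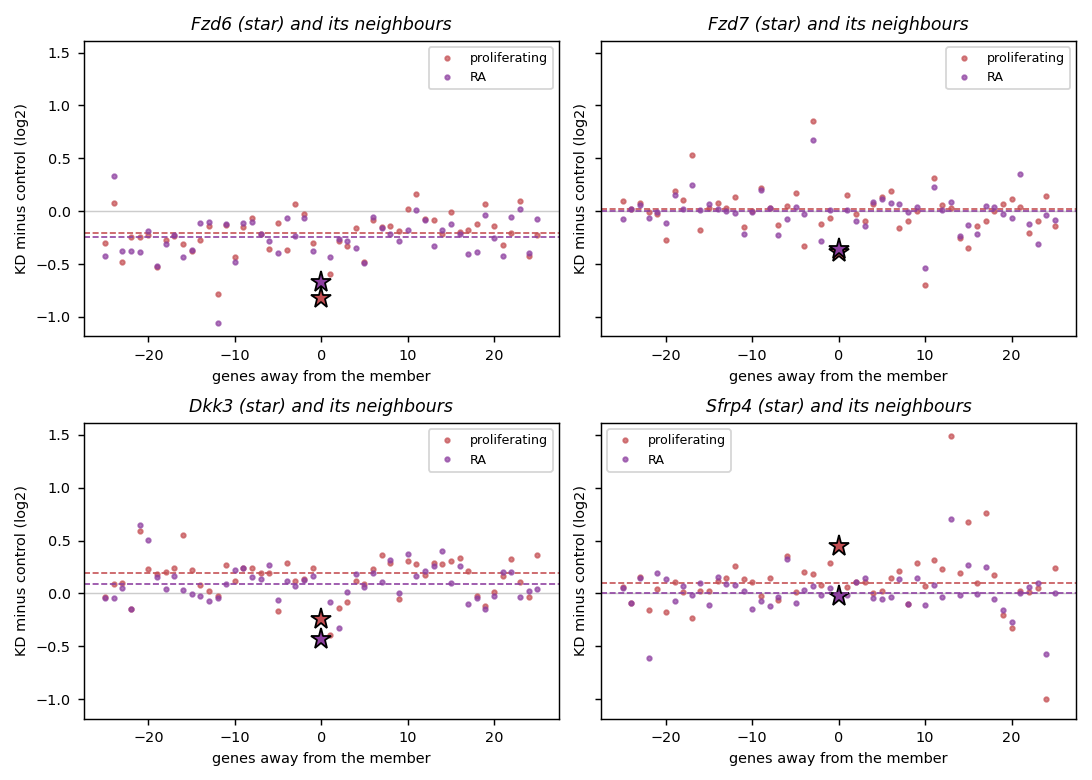
KD minus control change (y axis, log2) of Fzd6, Fzd7, Dkk3 and Sfrp4 (stars) and of the 50 genes next to each (points), by the number of genes away (x axis), in proliferating (red) and RA-treated (purple) cells, with dashed lines at the neighbours' medians. The neighbours of Fzd6 lie mostly below 0, with medians of -0.21 and -0.25, and those of Fzd7 lie around 0.

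Promoter sequence was read for what the members share. A RefSeq table (mouse build GRCm38.p6) of windows from 250 bases before to 50 after each gene's start held 45 windows for 36 of the 56 genes, and none for Dkk3, Fzd6, Sfrp4 or Wnt5a. Those of 4 called genes are shown, because Fzd5 and Lef1 were called higher with RA in control and in KD cells, and Fzd7 and Dkk1 in KD cells. The bases before the start are printed 5′ to 3′ on the strand of the gene, for Lef1 the first of 4 windows, with matches to a TCF/LEF core (CTTTG followed by AA, AT, TA or TT, on either strand) in capitals.
Fzd5 (chr1:64737751-64738000, minus strand): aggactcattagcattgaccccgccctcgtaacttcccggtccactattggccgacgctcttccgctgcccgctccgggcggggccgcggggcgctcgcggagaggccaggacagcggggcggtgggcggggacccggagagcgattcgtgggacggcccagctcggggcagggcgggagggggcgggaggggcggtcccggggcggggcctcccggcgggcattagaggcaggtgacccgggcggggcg
Lef1 (chr3:131110047-131110296, plus strand): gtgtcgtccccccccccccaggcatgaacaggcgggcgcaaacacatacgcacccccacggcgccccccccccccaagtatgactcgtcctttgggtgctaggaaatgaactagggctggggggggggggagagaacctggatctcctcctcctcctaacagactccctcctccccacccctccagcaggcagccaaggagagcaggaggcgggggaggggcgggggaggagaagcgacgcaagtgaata
Fzd7 (chr1:59481897-59482146, plus strand): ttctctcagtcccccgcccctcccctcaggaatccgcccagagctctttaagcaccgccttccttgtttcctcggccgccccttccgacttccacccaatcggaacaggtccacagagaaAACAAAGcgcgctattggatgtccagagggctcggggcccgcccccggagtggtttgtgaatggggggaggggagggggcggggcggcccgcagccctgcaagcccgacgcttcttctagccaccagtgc
Dkk1 (chr19:30549497-30549746, minus strand): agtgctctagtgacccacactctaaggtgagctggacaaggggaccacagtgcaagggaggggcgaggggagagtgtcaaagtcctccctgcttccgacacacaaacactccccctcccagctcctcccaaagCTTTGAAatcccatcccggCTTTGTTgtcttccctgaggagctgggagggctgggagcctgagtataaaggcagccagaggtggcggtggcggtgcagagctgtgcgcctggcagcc
The Dkk1 window held 2 TCF/LEF cores and that of Fzd7 held 1, and no core was found in the Fzd5 window or in the Lef1 window shown, while 1 of the other Lef1 windows held 1. Of the 7 windows of called genes, 4 of them those of Lef1, 3 held a core (42.9%). Such a core stood in 7 of the 45 Wnt gene windows, or 15.6%, a share close to the 16.9% of all 32851 windows. Direct repeats of the hexamer that retinoid receptors are known to bind were also sought (AGGTCA or GGGTCA, or either of them ending in GTTCA, on either strand). With a spacing of 5 or 2 bases they were found in none of the Wnt gene windows, and in 0.0974% and 0.268% of all windows. At such low shares their absence from 45 windows says little. The single hexamer AGGTCA, which such repeats can hold, stood in 1 of the 45 Wnt gene windows (2.22%) beside 16.3% of all. No motif share was compared at matched GC content, which differed between the sets, as given below. The octamer ATGCAAAT, known as a POU factor motif, stood in those of Lgr4 and Sfrp2, or 4.44%, beside 1.74% of all. The Wnt gene windows were rich in GC. Their median GC content was 67.3% beside 52.7% in all windows, and they held a median of 26 CpG dinucleotides beside 7. The Fzd5 window, at 75.7% GC with 38 CpG, was far from that of Dkk1, at 60.7% GC with 9 CpG.

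Other genes of the pathway were read from 6 lists, beside the shares of all tested genes called: 6.96% and 7.71% between KD and control cells, 9.34% and 9.94% with RA, and 1.24% in the interaction. In the order below, 2 of 3, 5 of 10 and 4 of 15 genes on the array passed the filter. In the lists after these 10 of 20, 8 of 14 and 7 of 15 did. Without the filter each list had the same number of calls. The shares of all genes were then 3.47% and 3.87% between KD and control cells, 4.65% and 4.97% with RA, and 0.466% in the interaction. None of 3 genes for Wnt secretion and processing and none of 10 other extracellular inhibitors was called in any of the 5 comparisons. Of the first list Porcn came close, with a KD change of -0.37 ± 0.05 in proliferating cells (adjusted p = 0.000323). After RA its KD change was -0.26 ± 0.05 (adjusted p = 0.00269). Among 15 other receptors and planar polarity genes 1 was called, the formin-family gene Daam2, which changed by -0.48 ± 0.06 with RA in control cells (adjusted p = 0.00011). Among 20 cytoplasmic transducers Ctnnbip1, an inhibitor of beta-catenin binding to TCF factors, was lower in KD RA than in control RA cells (-0.43 ± 0.07, adjusted p = 0.000431), and Dact1, which binds Dishevelled, rose with RA in KD cells (0.42 ± 0.06, adjusted p = 0.000233).

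Among 14 nuclear cofactors the calls fell on Tle3, Tle6 and Ctbp2. The co-repressor Tle3 rose with RA by 0.49 ± 0.05 in control (adjusted p = 1.45e-05) and 0.52 ± 0.05 in KD cells (adjusted p = 9.93e-06). The related Tle6 fell by 0.60 ± 0.06 in control (adjusted p = 1.15e-05) and by 0.56 ± 0.06 in KD cells (adjusted p = 2.17e-05). Ctbp2, also a co-repressor, was 0.40 ± 0.05 higher in KD than in control proliferating cells (adjusted p = 0.000217).

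Of 17 listed targets of beta-catenin 15 were on the array. The cyclin gene Ccnd1 rose with RA by 0.45 ± 0.05 in control cells (adjusted p = 2.06e-05), while its change in KD cells was 0.12 (adjusted p = 0.081), and the difference of -0.33 between the 2 responses had an adjusted p of 0.0355 at under 1.3-fold. Jun, an AP-1 factor, was the only gene of these 6 lists called in the interaction, at -0.68 ± 0.08 (adjusted p = 0.00383). With RA Jun fell by 0.89 ± 0.06 in KD cells (adjusted p = 5.09e-07), its change in control cells was -0.20 (adjusted p = 0.0187), and after RA it was lower in KD than in control cells (-0.42 ± 0.06, adjusted p = 0.000224). Over the 15 targets the median KD change after RA was -0.14, with a range of -0.42 to 0.0038, beside -0.03 over all genes, and 1 of the 15 was called. There 7 of the 15 had an unadjusted p under 0.05 in limma, beside 33% of all genes. In proliferating cells that median was 0.01 and none was called, with 3 of the 15 at an unadjusted p under 0.05 in limma, beside 30.1% of all genes.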

How the data were processed

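Values were taken as deposited by the authors: log2 expression per probe set and array, which the study's methods describe as RMA background correction, quantile normalisation and gene-level summary, so changes in the RNA content of cells are not visible. RMA and limma are named in the submitters' processing notes, with versions not given in the sources used here. Scan batches are not given there either, and the number of arrays limits the precision. Labels and methods call the 3 samples of a group biological replicates.

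The platform annotation gave 1 symbol to 21789 probe sets, several to 1621 and none to 12146. Symbols were updated by identifier for 21698 (RefSeq, GRCm38.p6), and 91 did not match. Each gene was represented by its probe set of widest interquartile range (999 genes had several), and the lower 50% of 19938 genes by interquartile range was dropped, as the study's methods describe a filter on variability. In R 4.3.3, limma 3.58.1 (lmFit, eBayes, two-sided) was fitted to all 12 arrays with 1 mean per group, and p-values were adjusted (Benjamini-Hochberg) over all 9969 genes tested in each of 5 comparisons. The fit was tested on simulated data. Figures were drawn with matplotlib 3.10.9 in Python 3.11.15. The members, lists, tests and named genes were chosen with earlier results of these data known. Named are every called member, Fzd5, Dkk1, the member of each role with the widest range of group means, those at the ends of the RA changes and up to 4 called genes of each other list. Wnt2, Axin2, Lrp6, Porcn, the other Wnt genes on chromosome 15 and the genes listed under the receptor-gene percentile, whose values were known, were added. No sequence of the proteins was used here.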

Additional observations from a re-analysis of the deposited data

Results flagged for a closer look

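Sfrp4 had an RA change that differed between control and KD cells by a test close to its threshold. The RA change in KD cells, less that in control cells, was -0.471 on the log2 scale (limma interaction term, adjusted p = 0.0442), with an RA change of -0.57 in KD and -0.10 in control cells. Over 19 alternative settings the adjusted p ran from 0.0267 to 0.102 and was under 0.05 in 6. It was 0.0586 without the filter, and of the fits that left out 1 array it stayed under 0.05 only without the third control proliferating array (0.0491). All 3 KD proliferating arrays were above the other 9. The gene's signal lay under the 95th percentile of olfactory and vomeronasal receptor genes in every group, and the part of background signal in the difference was not tested. Groups of 3 arrays were not searched for outlying arrays.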

How the results depend on the processing

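Counts of called Wnt genes stayed within 1.5 times of the main ones in the 4 comparisons of pairs of groups under every setting run, with ranges of 2 to 3 in KD against control proliferating, 2 to 3 in KD against control RA, 4 to 5 for RA in control and 4 to 5 for RA in KD cells when 1 array was left out. The interaction count of 1 became 0 without the filter, 0 with a filter on level and 0 with a replicate block, ranged from 0 to 1 when 1 array was left out (it was 1 only without the third control proliferating array), and was 3 by adjusted p alone, a rule chosen after the data were seen. The filter on level dropped Sfrp4 and Wnt5a, whose signal lay at percentiles 20.71 and 48.77 of all genes, so neither could be called there. Without the filter more genes are tested and the adjustment changes, and other causes were not tested. No change of a named gene reversed where it was called in the main fit or under the alternative. Some uncalled changes near 0 did change sign. The KD change of Fzd5 in proliferating cells, for example, ran from -0.0006 to 0.098. Of single-gene values under these settings 1031 kept their side of the threshold, 11 passed it only under the alternative and 23 no longer did, most of them for Fzd7 and for the interaction of Sfrp4. Subtracting the median of neighbouring genes took Sfrp4 under the cutoff in proliferating cells (0.35) and Dkk3 over it (-0.43). The paired fit, with the replicate number as a block, left counts of 3, 2, 4 and 5 and took the adjusted p of the Sfrp4 interaction to 0.0621. After each gene's group mean was subtracted, same-numbered arrays of different groups correlated at -0.0878 to 0.215 over 18 pairs, 13 of them under 0.1. Arrays with different numbers correlated at -0.233 to 0.138 in the same way. Of 12 arrays 7 were closest to an array of their own number. These values are too few and too low to decide whether the numbers pair the samples.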
